A study of Mus musculus with 2 samples.

Results

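The non-catalytic subunits of the CCR4-NOT complex were examined in 2 cultures of NIH3T3 cells, an immortalised mouse fibroblast line, grown in serum-containing medium. One culture had been infected with a retrovirus carrying a short hairpin RNA against CCR4b (CCR4b RNAi), and the other with a control hairpin virus (control RNAi). Both cultures therefore carry a hairpin-expressing virus. Each group is 1 Affymetrix GeneChip mouse genome array, on which a probe set reads a transcript through a group of short probes. No value has a replicate error and none was tested, and the hairpin's effect cannot be told apart from any other difference between the dishes. "Higher" and "lower" below describe this pair of arrays.

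The members were chosen by name as subunits without deadenylase activity: Cnot1, Cnot2, Cnot3, Cnot4, Cnot9, Cnot10, Cnot11 and Tnks1bp1. These are 8 genes, beside 18194 genes that have a probe set of their own on the array. The platform annotation gives them 24 probe sets. Of these, 22 name 1 member alone. The other 2 are the only probe sets annotated to Cnot1, and both are also annotated to Gm6158, a pseudogene in the RefSeq table, so no value is attributed to Cnot1.

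CCR4-NOT shortens the poly(A) tails of mRNAs, a step that represses translation and starts decay. CNOT1 is the large scaffold on which the complex is built. CNOT2 and CNOT3 form a dimer that docks on its C-terminal region, CNOT9 binds its middle and offers a surface to proteins that recruit the complex to mRNAs, and CNOT10 and CNOT11 form a module on its N-terminal region. CNOT4 is a RING-type ubiquitin ligase that is only loosely attached in mammals, and TNKS1BP1, a protein first found as a tankyrase partner, copurifies with the complex. The deadenylases themselves are CNOT6 or CNOT6L (CCR4a and CCR4b) and CNOT7 or CNOT8.

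Among the members, Cnot3 and Cnot11 were lower after CCR4b RNAi by more than 1.5-fold on their brightest probe sets, and Cnot4 had the highest ratio. The 250 bases before the RefSeq transcription start (GRCm38.p6) of these 3 genes are shown because they span the range of the members' ratios. Capitals mark matches to the motifs searched on both strands: the CCAAT box (CCAAT), the SP1 motif (GGGCGG), the ETS motif (CCGGAAG), an E2F motif in its C form (TTTCCCGC) and G form (TTTGGCGC), and the E-box (CACGTG). The windows are chr7:3645019-3645268 on the plus strand for Cnot3, chr1:39535451-39535700 on the plus strand for Cnot11 and chr6:35133738-35133987 on the minus strand for Cnot4, each written 5′ to 3′ on the gene's strand.
Cnot3: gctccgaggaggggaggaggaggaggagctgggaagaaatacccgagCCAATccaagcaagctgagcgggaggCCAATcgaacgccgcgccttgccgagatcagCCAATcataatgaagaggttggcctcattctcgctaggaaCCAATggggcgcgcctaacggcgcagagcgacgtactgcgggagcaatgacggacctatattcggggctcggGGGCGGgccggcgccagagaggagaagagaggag
Cnot11: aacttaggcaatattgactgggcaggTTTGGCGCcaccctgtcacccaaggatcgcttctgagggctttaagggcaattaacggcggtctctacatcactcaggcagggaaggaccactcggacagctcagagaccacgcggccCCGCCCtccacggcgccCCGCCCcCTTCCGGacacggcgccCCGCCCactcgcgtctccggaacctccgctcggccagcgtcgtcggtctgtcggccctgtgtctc
Cnot4: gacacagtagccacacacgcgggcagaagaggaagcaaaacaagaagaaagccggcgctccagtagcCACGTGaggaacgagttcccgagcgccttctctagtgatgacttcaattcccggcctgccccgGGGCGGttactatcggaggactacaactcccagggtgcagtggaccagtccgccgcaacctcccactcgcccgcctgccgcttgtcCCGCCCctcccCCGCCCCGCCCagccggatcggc

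The Cnot3 window holds 4 CCAAT boxes, whose first letters lie 203, 177, 146 and 106 bases before the start, and 1 SP1 motif. CCAAT is found in 33.8% of the 32817 promoter windows of this length in the RefSeq table, and in 1 of the 7 windows of the 6 members listed there. The Cnot11 window holds 3 SP1 motifs, 1 ETS motif and 1 match to the G form of the E2F motif, which starts 224 bases before the start and occurs in 0.417% of all windows. The Cnot4 window has 4 SP1 motifs, a pair of which overlap, and 1 E-box, a motif found in 6.02% of all windows. The SP1 motif was in 6 of the 7 member windows and in 32.7% of all windows. In the Cnot10 window, 3 ETS motifs were found, against 6.90% of all windows with at least 1, and the one nearest the start shares a base with an SP1 motif. The C form of the E2F motif, found in 0.893% of all windows, was in none of the 7 member windows. A GC content of 62.4% in the Cnot3 window, 65.6% in that of Cnot11 and 65.2% in that of Cnot4 compares with a median of 52.4% over all windows. The Cnot9 window had 63.6%, that of Cnot10 53.6% and those of Cnot2 57.6% and 33.2%, the last without an SP1 motif. The share of windows of like GC content that hold an SP1 motif was not computed. These matches describe letters only. The arrays hold no measurement of factor binding.

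Signals are in the arbitrary units of the deposited table, and a ratio is the log2 of CCR4b RNAi over control RNAi after values below a floor of 8.07 units were raised to it. The floor is the 50th percentile of both arrays together. A probe set was taken as measured if at least 1 array reached the floor, and a gene is represented by its probe set with the highest mean signal. Probe sets differ in how brightly their probes bind, so levels are compared between arrays for 1 probe set and never between genes. Of the 22 probe sets that name 1 member, 19 were measured, 18 of them above the floor on both arrays, and each of the 7 members other than Cnot1 had at least 1. Fibroblast markers were present: all 10 fixed markers, such as Col1a1 and Vim, were above the floor on both arrays. Their summed signal was 22534 units after CCR4b RNAi and 19606 units in control RNAi. The markers did not share a direction: 2 of the 10 were lower, and log2 ratios ran from -0.76 (Thy1) to 0.71 (Lum). None of 3 endothelial and none of 3 muscle markers was measured. Of 4 epithelial markers 1 was, Epcam, with 29.5 units after CCR4b RNAi and 19.4 units in control RNAi, and of 4 leukocyte markers 3 were, with summed signals of 36.0 units after CCR4b RNAi and 56.0 units in control RNAi. The targeted gene, Cnot6l, read 43.0 units after CCR4b RNAi and 102 units in control RNAi on its brightest probe set, a log2 ratio of -1.25.

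The members' genes were spread around the level of all genes rather than displaced together. The median log2 ratio of the 7 genes was -0.19, against -0.070 over all 11915 measured genes. Of the 7, 5 had a ratio below 0 and 2 above it. Across all measured genes 56.0% were below 0. At 1.5-fold, 2 of 7 members were lower, where the background is 14.6% of measured genes, and 0 of 7 were higher, where it is 11.3%. With 7 genes, 1 gene fewer would put the members' share at about the background. At 2-fold, no member was past the threshold in either direction, beside 4.48% of all genes lower and 3.74% higher. Counted by probe set, 3 of 19 were at least 1.5-fold lower (background 14.4%) and 0 of 19 at least 1.5-fold higher (background 12.7%). The median over these 19 probe sets was -0.070, against -0.043 over all 21539 measured probe sets with 1 symbol, and 10 of the 19 lay below 0, beside 53.4% of all measured probe sets with 1 symbol. The split of the member probe sets by sign was thus that of the background.

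**Figure D1:**
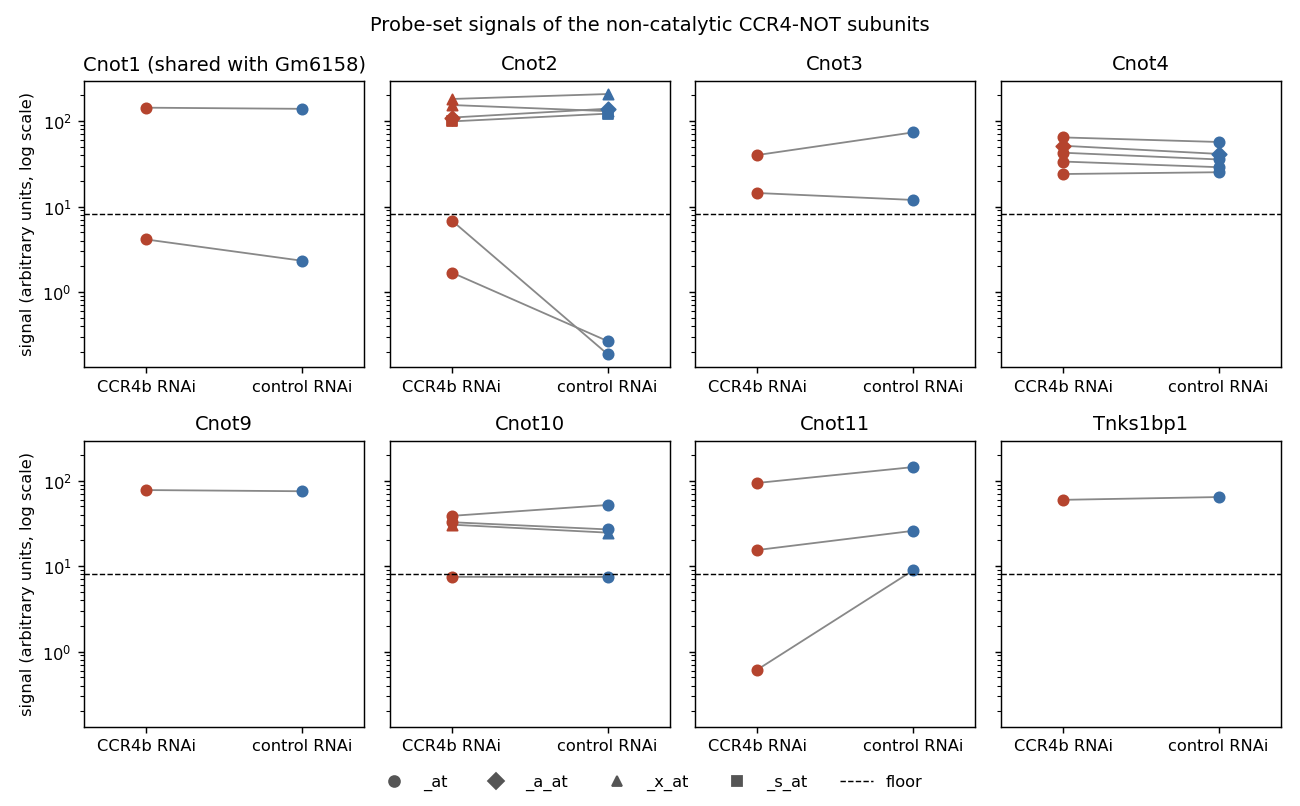
Signal of every probe set annotated to the 8 subunits, in arbitrary units on a log axis, with CCR4b RNAi on the left and control RNAi on the right of each panel; each line joins the readings of 1 probe set, the marker shape gives its identifier suffix, and the dashed line is the floor of 8.07 units. The brighter Cnot3 probe set and the 2 brighter Cnot11 probe sets are lower after CCR4b RNAi, while 4 of the 5 Cnot4 probe sets are higher. The dimmest Cnot11 probe set reaches the floor in control RNAi only.

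The scaffold itself could not be read on its own. The bright probe set annotated to both Cnot1 and Gm6158 (1434251_at) read 143 units after CCR4b RNAi and 139 units in control RNAi, a log2 ratio of 0.044. The 2 arrays differed on it by 1.03-fold. The other shared probe set (1457546_at) read 4.12 units after CCR4b RNAi and 2.32 units in control RNAi, below the floor on both. The annotation does not say how much of the bright signal comes from either gene.

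In the CNOT2-CNOT3 dimer, Cnot2 and Cnot3 differed in their ratios. Cnot3 read 40.1 units after CCR4b RNAi and 73.7 units in control RNAi on its brighter probe set (1435965_at), which is 1.84-fold lower (log2 ratio -0.88). That ratio stood at percentile 6.97 of the 1191 genes of its signal class, 1 of 10 equal classes by mean signal, which had a median of -0.14 and a robust SD of 0.50. Within 0.1 log2 units of it lay 403 other genes, so a ratio of this size is not rare on these arrays. On the dimmer Cnot3 probe set (1441465_at) the order was turned, with 14.4 units after CCR4b RNAi and 11.9 units in control RNAi, a log2 ratio of 0.27. Among measured probe sets of like dim signal the robust SD was 0.67, so the dim value lies well within their spread. The direction for Cnot3 therefore rests on 1 probe set.

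Cnot2 was read by 4 bright probe sets, and they did not share a direction. The brightest (1436980_x_at) had 181 units after CCR4b RNAi and 207 units in control RNAi, a log2 ratio of -0.19. The next (1456576_x_at) had 154 units after CCR4b RNAi and 131 units in control RNAi, a log2 ratio of 0.24. The pair designed from the same expressed sequence tag lay lower after CCR4b RNAi. In that pair, 1454603_a_at read 110 units after CCR4b RNAi and 140 units in control RNAi (log2 ratio -0.34), and 1454602_s_at read 99.1 units after CCR4b RNAi and 122 units in control RNAi (log2 ratio -0.30). Identifiers ending in _x_at or _s_at mark probes that can bind several transcripts, and those ending in _a_at mark probes shared by transcripts of 1 gene. Only the _a_at probe set of the 4 bright ones is free of that doubt. All 4 ratios lay within the robust SD of probe sets of like signal (0.43 to 0.45) around the class median. The remaining Cnot2 probe sets were below the floor on both arrays, at 6.84 units after CCR4b RNAi and 0.188 units in control RNAi on 1445017_at, and at 1.69 units after CCR4b RNAi and 0.267 units in control RNAi on 1447212_at. No fold is given for these dim readings.

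Cnot9 and Tnks1bp1 each had a single probe set and nearly equal readings. Cnot9, the subunit that contacts recruiting proteins, read 77.6 units after CCR4b RNAi and 75.2 units in control RNAi (log2 ratio 0.046). Tnks1bp1 read 59.6 units after CCR4b RNAi and 64.3 units in control RNAi (log2 ratio -0.11). Both ratios were close to the medians of their signal classes, at percentile 66.5 for Cnot9 and 51.6 for Tnks1bp1. The sign of either depends on scaling: Cnot9 had -0.048 after each array was divided by its median, and Tnks1bp1 had 0.0050 with quantile normalization. With 1 probe set each, agreement between probe sets cannot be examined.

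In the CNOT10-CNOT11 module, Cnot11 was lower on both probe sets that reached the floor on both arrays. Cnot11 read 94.0 units after CCR4b RNAi and 144 units in control RNAi on its brightest probe set (1428533_at), 1.53-fold lower (log2 ratio -0.62). On the second (1439772_at) it read 15.4 units after CCR4b RNAi and 25.9 units in control RNAi, 1.67-fold lower (log2 ratio -0.74). The dimmest (1452824_at), designed from the same expressed sequence tag as the brightest, read 0.617 units after CCR4b RNAi and 8.91 units in control RNAi. Against the floor this is at least 1.10-fold lower. All 3 Cnot11 probe sets were thus lower after CCR4b RNAi, none of them by 2-fold as measured against the floor. The brightest stood at percentile 14.1 of its signal class (median -0.14, robust SD 0.44), and 961 other genes had a ratio within 0.1 log2 units. It passed 1.5-fold only narrowly: quantile normalization gave -0.49 and a loess curve through ratio against signal gave -0.48, both short of 1.5-fold.

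Cnot10, the partner of Cnot11, showed no shared direction. Its brightest probe set (1433882_at) read 38.7 units after CCR4b RNAi and 51.9 units in control RNAi, 1.34-fold lower (log2 ratio -0.42). The next (1459756_at) read 32.6 units after CCR4b RNAi and 26.9 units in control RNAi (log2 ratio 0.28). A companion from the same expressed sequence tag (1459757_x_at) read 30.5 units after CCR4b RNAi and 24.6 units in control RNAi (log2 ratio 0.31). The readings of 1459756_at and 1459757_x_at share a source sequence and are not independent of each other. The last (1453654_at) was below the floor, at 7.48 units after CCR4b RNAi and 7.47 units in control RNAi. Taking the median over the gene's measured probe sets turned the Cnot10 ratio to 0.28, so its direction depends on which probe set represents it.

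Cnot4, the ubiquitin ligase, was the member with the highest ratio, and its 5 probe sets lay close together. The brightest (1450083_at) read 64.4 units after CCR4b RNAi and 56.9 units in control RNAi (log2 ratio 0.18). The second, 1436645_a_at, read 51.4 units after CCR4b RNAi and 41.3 units in control RNAi (log2 ratio 0.32). The third, 1420999_at, read 42.6 units after CCR4b RNAi and 35.6 units in control RNAi (log2 ratio 0.26). These 3 were higher after CCR4b RNAi, each by less than 1.5-fold. The fourth, 1437586_at, read 33.6 units after CCR4b RNAi and 28.9 units in control RNAi (log2 ratio 0.22). The dimmest, 1421000_at, read 24.0 units after CCR4b RNAi and 25.2 units in control RNAi (log2 ratio -0.070). None of the 5 has an _x_at or _s_at identifier. The brightest stood at percentile 73.2 of its signal class, so the Cnot4 ratios were close to each other but of a size common among genes of like signal.

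**Figure D2:**
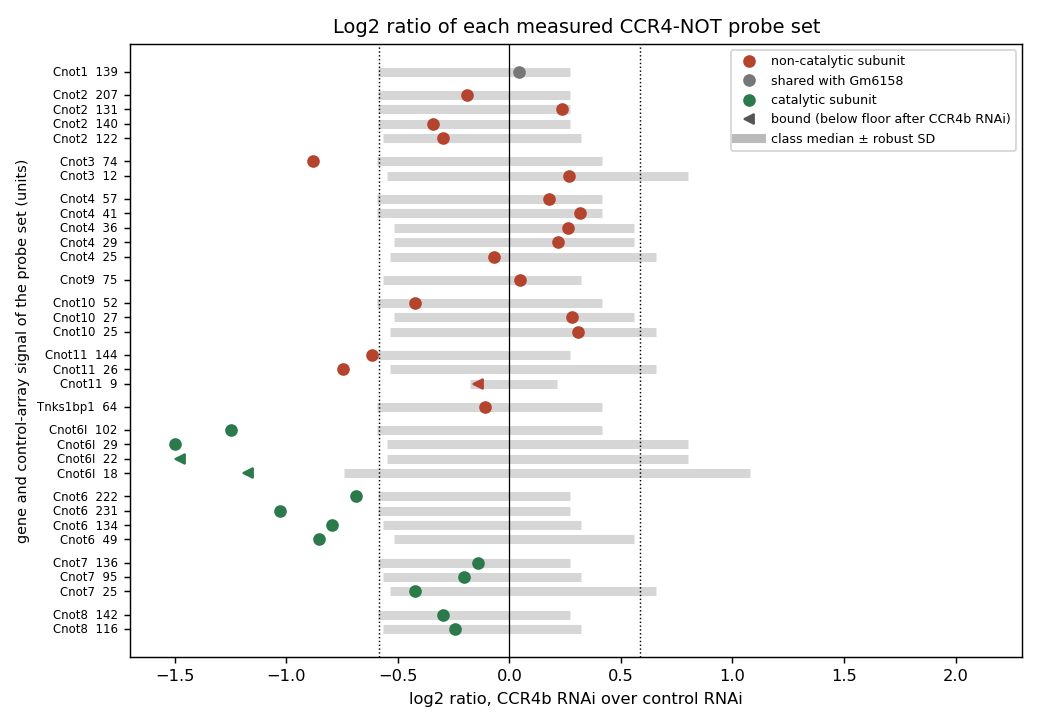
Log2 ratio of CCR4b RNAi over control RNAi for each measured probe set of the complex, grouped by gene and labelled with its control-array signal in units; grey bars give the median ± robust SD of all measured probe sets of like signal, dotted lines mark 1.5-fold, and left-pointing triangles are bounds against the floor. Among the non-catalytic subunits the brighter Cnot3 probe set (-0.88) and the 2 brighter Cnot11 probe sets (-0.62 and -0.74) lie left of the 1.5-fold line, as do all 8 probe sets of Cnot6l and Cnot6.

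Agreement between probe sets was compared over those that reached the floor on both arrays. Of the 5 members with at least 2 such probe sets, 4 had ratios of both signs (Cnot2, Cnot3, Cnot4 and Cnot10) and Cnot11 was lower on both. Over all 4550 genes with at least 2 such probe sets, 43.5% had both signs, and the share grows with their number. It was 34.5% of 2716 genes with 2 probe sets, 51.8% of 1144 genes with 3, 62.3% of 435 genes with 4 and 68.8% of 170 genes with 5. Of the 2716 genes with 2 probe sets, 38.1% were lower on both, as Cnot11 was. Cnot3 had the widest gap of the members, 1.15 log2 units between its 2 probe sets, beside a median of 0.32 over genes with 2. That gap stood at percentile 94.8 of those genes. The gap of Cnot11 was 0.13, at percentile 24.5 of the same genes. The range of Cnot10 over 3 probe sets was 0.73, against a median of 0.55, and that of Cnot2 over 4 was 0.58, against 0.68. Cnot4 had a range of 0.39 over 5 probe sets against a median of 0.84, at percentile 11.2, the lowest of these percentiles. Cnot3 is therefore the member whose probe sets lay furthest apart. The narrow gap of Cnot11 depended on scaling: it was 0.34 with quantile normalization and 0.34 with loess, although both of its probe sets stayed lower.

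**Figure D3:**
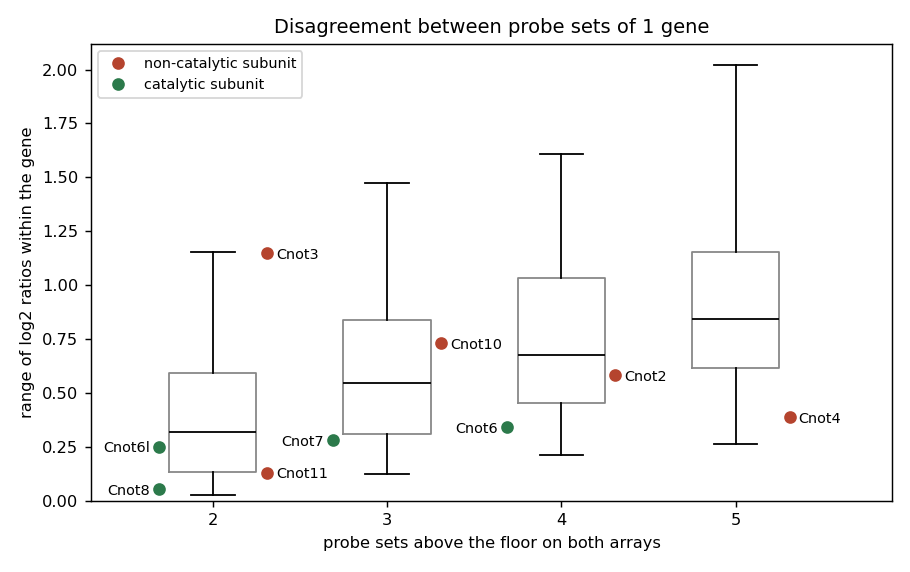
Range of log2 ratios between the probe sets of 1 gene against the number of its probe sets that reached the floor on both arrays; boxes show all genes with that number (median, quartiles, and whiskers to the 5th and 95th percentiles), and points show CCR4-NOT subunits. Cnot3, at 1.15 log2 units, lies near the top of genes with 2 probe sets, whereas Cnot11 (0.13) and Cnot4 (0.39) lie below their medians.

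Set beside the deadenylases, the non-catalytic subunits had the higher ratios in the median. The 4 catalytic genes had a median log2 ratio of -0.49 and all 4 lay below 0, from -1.25 for Cnot6l, the hairpin's target, to -0.14 for Cnot7. Within their signal classes, Cnot6l stood at percentile 2.35, Cnot6 at 10.8, Cnot8 at 36.5 and Cnot7 at 49.8. Cnot7 thus lay at the median of genes of like signal (-0.14), and Cnot8 within their robust SD of 0.44 around it. The 7 non-catalytic genes ranged from -0.88 for Cnot3 to 0.18 for Cnot4. The ranges overlap: Cnot3 lay between Cnot6l and Cnot6 (-0.69), and Cnot11 (-0.62) and Cnot10 (-0.42) lay between Cnot6 and Cnot8 (-0.30). Without Cnot6l, the other 3 catalytic genes had a median of -0.30, nearer to the -0.19 of the non-catalytic genes. The order without Cnot6l depended on probe-set choice. With _x_at and _s_at probe sets left out, the non-catalytic median was -0.34, above Cnot6 (-0.69) but below Cnot8 (-0.30) and Cnot7 (-0.20). Each of the 13 measured probe sets of the catalytic genes was lower after CCR4b RNAi, 4 of them probe sets of the targeted gene, beside the background of 53.4% of measured probe sets below 0. Cnot6l probe sets 1451723_at and 1434311_at counted as measured through the control array alone, so their ratios could only lie below 0. The 4 Cnot6 probe sets share a source sequence, as do 1425480_at, 1425481_at and 1451723_at of Cnot6l. The 13 readings are therefore not independent of each other. Without replicates the difference between these gene groups has no test.

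Among 34 genes whose proteins are known to bind CCR4-NOT or to work beside it, 30 had a probe set of their own and 28 were measured. At 1.5-fold, 3 of the 28 were higher and 2 were lower in the CCR4b RNAi culture, beside the background of 11.3% and 14.6% of all genes. Their median log2 ratio was -0.027. Tnrc6c encodes a GW182 protein, which links Argonaute to the CNOT1-CNOT9 surface. It read 82.4 units after CCR4b RNAi and 45.3 units in control RNAi, 1.82-fold higher, with a log2 ratio of 0.60 on its second probe set. Zfp36 encodes tristetraprolin, which binds AU-rich elements and recruits CNOT1. It read 42.6 units after CCR4b RNAi and 26.3 units in control RNAi, 1.62-fold higher. Samd4, a SMAUG-type RNA-binding protein gene, read 130 units after CCR4b RNAi and 82.7 units in control RNAi, 1.57-fold higher, with log2 ratios of 0.29 and 0.21 on dimmer probe sets. Tnrc6c and Samd4 were higher on each of their measured probe sets, while Zfp36 has only 1 probe set. Nanos1, whose protein binds CNOT1, read 8.33 units after CCR4b RNAi and 22.3 units in control RNAi, with the first value near the floor, 2.68-fold lower. Pan2, the catalytic subunit of the separate PAN2-PAN3 deadenylase, read 21.5 units after CCR4b RNAi and 35.3 units in control RNAi, 1.64-fold lower. Both rest on 1 measured probe set.

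Cell division markers moved with the same pair of arrays. Of 6 fixed markers 5 were measured, and all 5 (Mki67, Top2a, Cdk1, Mcm5 and Pcna) were lower after CCR4b RNAi, with log2 ratios from -1.92 to -0.83. Their summed signal was 1624 units after CCR4b RNAi and 3523 units in control RNAi. Their part in the readings of Cnot3 and Cnot11 was not tested. The control genes Actb and Gapdh had log2 ratios of -0.11 and -0.075, and their 3′ to 5′ signal ratios, a measure of RNA integrity, were 1.46 after CCR4b RNAi and 1.35 in control RNAi for Actb, and 0.819 after CCR4b RNAi and 0.824 in control RNAi for Gapdh.

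Under 8 other settings of scaling, floor and probe-set choice, Cnot2, Cnot3 and Cnot11 stayed below 0 and Cnot4 above it. Cnot3 was at least 1.5-fold lower in all but the setting that takes the median over its probe sets, which gave -0.30. Dividing each array by its median changed the background itself: 19.0% of genes were then lower by 1.5-fold or more, and 9.09% were higher by as much.

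**Figure D4:**
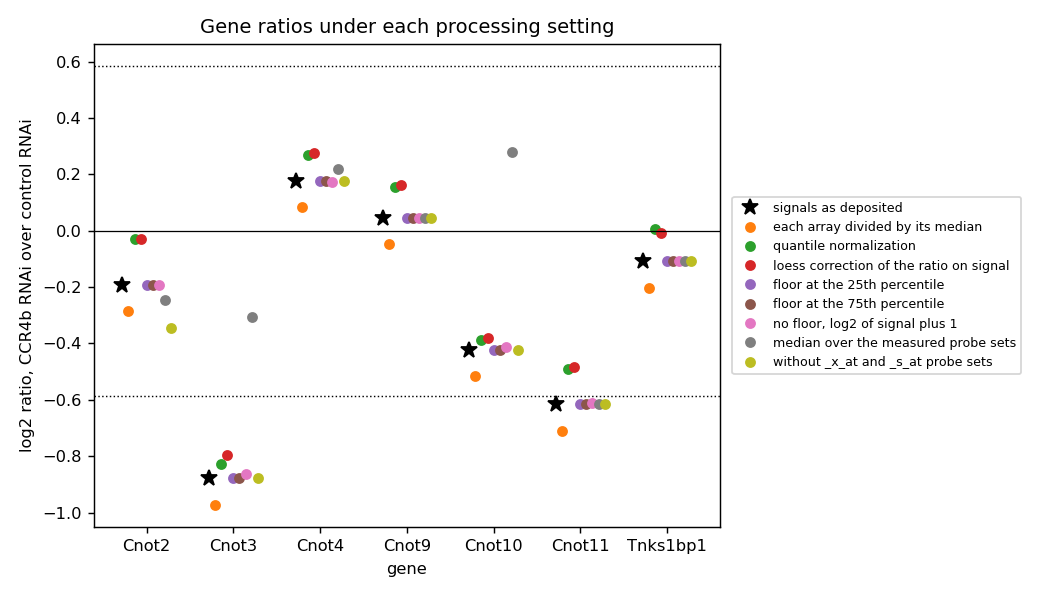
Log2 ratio of CCR4b RNAi over control RNAi for 7 non-catalytic subunits with signals as deposited (star) and under 8 other settings (coloured points); dotted lines mark 1.5-fold. Cnot3 spans -0.97 to -0.30, Cnot11 -0.71 to -0.48 and Cnot4 0.084 to 0.28, while Cnot10, Cnot9 and Tnks1bp1 have points on both sides of 0.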

How the data were processed

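Total RNA of the 2 cultures was hybridised to 1 array each, and groups come from the knockdown label. The deposited values are probe-set intensity readings on a linear scale. They were made by the authors in GCOS with a global normalization, per the series design text and the submitters' processing notes. The sources used here give neither the software version nor the normalization target, and the table holds no detection calls. Array number limits the precision.

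Gene names come from the platform annotation: 34958 probe sets carry 1 symbol, 932 carry several and 9211 are not listed. The 41 genes of the lists with a probe set of their own kept their symbol in the RefSeq table when matched by Entrez identifier. Intensities were used as deposited, floored at the 50th percentile and turned into log2 ratios (Python 3.11.15, pandas 2.3.3). A fold takes the place of a test, with 1.5-fold and 2-fold as thresholds. The robust SD is the median absolute deviation times 1.4826, within 10 signal classes. The text names all members, the catalytic subunits, Actb, Gapdh and partner genes past 1.5-fold. The members and lists were chosen with earlier results of these data known. Scripts were tested on simulated data. Promoters come from RefSeq (GRCm38.p6), matched by symbol for 6 of the 8 members.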

Additional observations from a re-analysis of the deposited data

How the results depend on the processing

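Alternatives were 3 scalings, 2 floors, no floor, the median over probe sets, and leaving out _x_at and _s_at probe sets; adding Cnot1 by its shared probe sets was chosen after seeing the data. No called ratio changed sign. The members' median moved to -0.028 with quantile normalization, to -0.028 with loess and to -0.34 without _x_at and _s_at probe sets. The count of the 7 members at least 1.5-fold lower was 1 with quantile normalization and 1 with loess, where Cnot11 dropped out. It was 1 by the median over probe sets, where Cnot3 did. Of all measured genes, 13.0%, 12.6% and 12.7% were as much lower under these settings, in that order. With the floor at the 25th percentile, 1 of 21 member probe sets was at least 1.5-fold higher, a dim Cnot2 probe set. At that floor 4 were at least 1.5-fold lower, since the dimmest Cnot11 probe set was then at least 4.16-fold lower. Both dim probe sets reached that floor on a single array, so their directions were fixed. The background rose as well, to 21.6% of all measured genes lower and 19.8% higher. With the floor at the 75th percentile, fewer probe sets are measured (12 of the members'). Only Cnot2 and Cnot4 then kept more than 1 probe set above the floor on both arrays, and 1 member, Cnot2, had ratios of both signs. At the 75th-percentile floor 0 of 26 partner genes were 1.5-fold lower, since Nanos1 and Pan2 were no longer measured. The background there was 14.1% of all measured genes. Samd4 had a log2 ratio of 0.56 after division of each array by its median, short of 1.5-fold, and 0.30 by the median over its probe sets; Zfp36 had 0.25 with the floor at the 75th percentile, which lies above its control reading. No paired analysis was possible because each group holds 1 array, and leaving out an array would leave no comparison.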
